A study of Mus musculus with 2 samples.

Results

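The 10 genes described here are the cyclins Ccnd1, Ccnd2, Ccnd3, Ccne1, Ccne2, Ccna2 and Ccnb1 and the cyclin-dependent kinases (CDKs) Cdk4, Cdk6 and Cdk2. They were chosen by name, by a rule that uses no measured value though earlier results of these data were known, from 42462 genes whose identifiers could be matched to a gene symbol, and all 10 had a row in the gene table with 60 transcript rows between them. The cells were G1E-ER4, an immortalized mouse erythroid line in which Gata1 function is restored through a hormone-inducible construct, and both libraries came from cells given 10 nM 17beta-estradiol for 24 hours. Polyadenylated RNA was sequenced as single reads of 36 bases in biological replicates 1 and 2, with 20412826 and 18564086 expected counts. An expected count is an estimated number of reads, shared among the transcripts that a read fits. TPM is that number per base of effective length, scaled to sum to 1000000 per library. The study's labels name no uninduced or untreated library among these 2, so the values describe induced cells of 1 line and show no change with induction. A value with ± gives the mean with its SD across n = 2 libraries, and with 1 group no test between conditions exists. Nothing in the labels says whether the replicates were separate cultures, so their spread may be partly technical.

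The erythroid label was checked against marker genes. All 8 erythroid markers were at 1 TPM or more in each library and 7 were at 100 TPM or more, with the red cell regulator gene Klf1 at 411 and 413 TPM. Both counts include Gata1, at 2714 and 3180 TPM, and whether its reads came from the construct was not tested. Of 8 markers of other blood cells none passed 1 TPM, their sum was 0.52 and 0.55 TPM, and Cd3e, Ptprc, Elane and Adgre1 had 0 counts in both libraries. Of 4 fibroblast or endothelial markers none passed 1 TPM, and their sum was 0.05 and 0.09 TPM.

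Cyclins are the regulatory subunits of CDKs, and their levels rise and fall to set the order of the cell cycle. D-type cyclins with Cdk4 or Cdk6 act in the gap phase before DNA synthesis, E-type cyclins with Cdk2 at the entry into S phase, cyclin A with Cdk2 and later Cdk1 during S phase and after it, and cyclin B with Cdk1 at mitosis. In red cell precursors the final divisions are linked to maturation, and cyclin D3, the product of Ccnd3, is known from mouse work to influence the number of those divisions and the size of the red cells.

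Sequences are shown for 3 places where the transcript data distinguished forms of a member. Ccnd3 has 2 annotated promoters, and the reads were assigned very unequally to the transcripts that begin at them. The windows below are from RefSeq on GRCm38.p6, on the plus strand, 250 bases before to 50 bases after the annotated start, with capitals for matches to GGGCGG (the GC box) and CCAAT (the CCAAT box) on either strand. The distal window lies at chr17:47504801-47505100 and the proximal window at chr17:47593217-47593516.
Ccnd3 distal promoter: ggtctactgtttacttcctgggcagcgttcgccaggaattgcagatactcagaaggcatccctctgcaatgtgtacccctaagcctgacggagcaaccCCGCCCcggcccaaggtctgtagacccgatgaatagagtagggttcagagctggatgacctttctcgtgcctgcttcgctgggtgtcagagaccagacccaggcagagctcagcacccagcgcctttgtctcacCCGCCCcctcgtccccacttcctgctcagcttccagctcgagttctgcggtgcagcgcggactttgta
Ccnd3 proximal promoter: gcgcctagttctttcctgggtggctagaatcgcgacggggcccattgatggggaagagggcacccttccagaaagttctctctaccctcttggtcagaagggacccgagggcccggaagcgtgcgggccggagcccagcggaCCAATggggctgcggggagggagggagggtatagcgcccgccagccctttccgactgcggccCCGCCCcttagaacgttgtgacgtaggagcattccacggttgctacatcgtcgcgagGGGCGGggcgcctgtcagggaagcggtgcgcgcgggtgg

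The next 2 sequences are coding exons that separate transcripts of the same gene. They were read from GENCODE M21 transcripts (GRCm38), in the direction of the gene, with the exon in capitals and 35 bases of the neighbouring exons in lower case. Exon 6 of Cdk2-202 lies at chr10:128699976-128700119 on the minus strand, has 144 bases or 48 codons, and is absent from Cdk2-201. Exon 4 of Ccnb1-201 lies at chr13:100783465-100783647 on the minus strand, has 183 bases or 61 codons, and is absent from Ccnb1-202. Both exons are coding throughout and keep the reading frame.
Cdk2-202 exon 6: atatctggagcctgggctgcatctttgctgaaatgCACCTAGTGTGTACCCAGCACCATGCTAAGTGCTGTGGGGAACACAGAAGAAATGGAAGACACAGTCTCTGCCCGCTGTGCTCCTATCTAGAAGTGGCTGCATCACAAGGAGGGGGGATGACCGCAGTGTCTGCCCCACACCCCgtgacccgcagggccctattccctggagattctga
Ccnb1-201 exon 4: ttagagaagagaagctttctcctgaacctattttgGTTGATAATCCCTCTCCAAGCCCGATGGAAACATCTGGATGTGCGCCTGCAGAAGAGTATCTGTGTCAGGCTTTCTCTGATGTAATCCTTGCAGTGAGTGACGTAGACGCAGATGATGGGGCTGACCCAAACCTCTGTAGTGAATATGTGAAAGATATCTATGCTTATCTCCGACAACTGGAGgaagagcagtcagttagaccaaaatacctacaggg

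Of the 10 genes 9 were detected, that is at 1 TPM or more in both libraries, where 41.2% of 21474 protein-coding genes and 24.3% of all matched genes were. A level of 100 TPM or more in both libraries was reached by 5 members, Ccnd3, Cdk4, Ccnb1, Ccne1 and Ccna2, against 5.52% of protein-coding genes. Over transcripts with coding sequence Ccnb1 did not reach that level, at 79.3 and 63.2 TPM, and over complete coding sequences Cdk4 did not either, at 112 and 68.9 TPM. In RNA from whole cultures, fewer cells with a transcript and less of it per cell cannot be told apart. The members summed to 2291 TPM in replicate 1 and 2422 TPM in replicate 2. From the highest mean TPM to the lowest the order was Ccnd3, Cdk4, Ccnb1, Ccne1, Ccna2, Ccne2, Cdk2, Ccnd2, Cdk6 and Ccnd1. Of these neighbours Ccne1 and Ccna2 overlapped in their ranges over the libraries, and the other pairs did not. With n = 2 a gap between ranges describes these libraries only. The middle of this order depends on which transcripts are counted, as the levels of coding transcripts show.

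**Figure D1:**
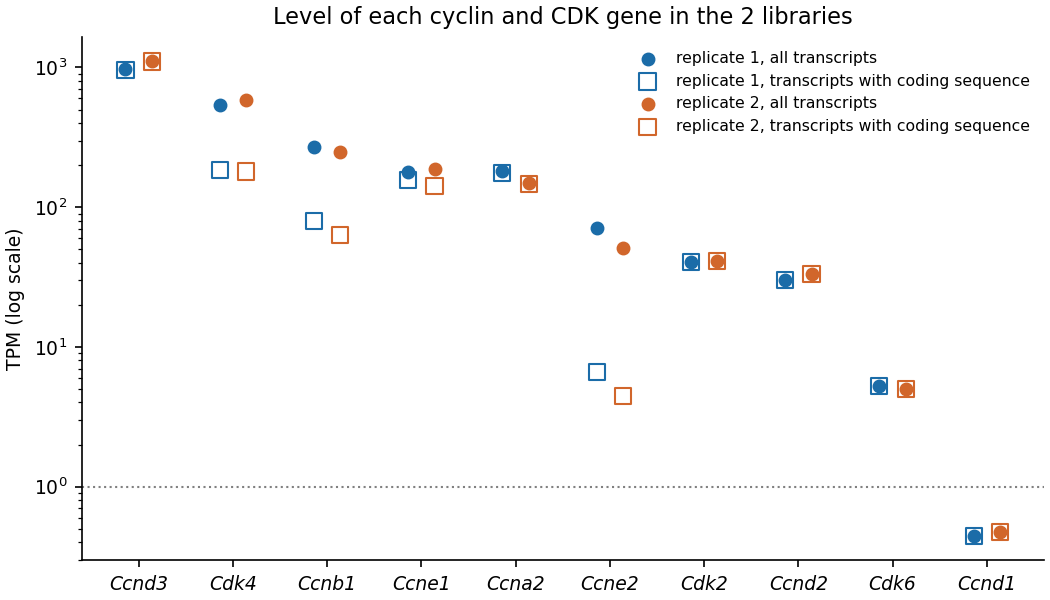
Level of each member in TPM on a log axis, with filled circles for all transcripts of the gene, open squares for transcripts with annotated coding sequence, 1 colour per replicate and a dotted line at 1 TPM. Ccnd3 stands highest by both measures at 1048 and 1032 TPM on average, while the squares of Cdk4, Ccnb1 and Ccne2 fall well below their circles.

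Among the D-type cyclins, nearly all of the RNA was Ccnd3. Ccnd3 lies on chromosome 17 from 47505051 to 47599691 on the plus strand (GRCm38) and stood at 975 TPM in replicate 1 and 1121 TPM in replicate 2, from 29598 and 29465 expected counts. It ranked 108 among 21474 protein-coding genes by mean TPM. Ccnd2, on chromosome 6 from 127125162 to 127152193 on the minus strand, stood at 30.2 and 33.4 TPM from 2749 and 2767 expected counts. Both genes were slightly higher in replicate 2, and the gap between them was far larger than the gap between libraries. The log2 ratio of Ccnd3 to Ccnd2 was 5.04 ± 0.04 in TPM, a 32.9-fold excess, and 4.97 when all reads of each gene were divided by the length of its principal coding transcript.

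Ccnd1, on chromosome 7 from 144929931 to 144939925 on the minus strand, was at 0.44 and 0.47 TPM, below the detection level in both libraries. Its 26.01 and 25.6 expected counts correspond to 1.27 CPM (expected counts per 1000000 in the library; 95% exact Clopper-Pearson interval 0.832 to 1.87) and 1.38 CPM (0.915 to 2.05). For a count of 0 an upper limit of 3 counts was set, in place of the exact interval. That limit is 0.147 and 0.162 CPM, so reads were assigned to Ccnd1 in both libraries, though few. The exact intervals cover counting error only. Of the 36-base stretches of Ccnd1 transcripts, 27.2% also occur in the neighbouring gene LTO1, which held 462 and 475 expected counts, and without stated strand the reads of such stretches cannot be told apart. As a share of the summed TPM of the 3 D-type cyclins, Ccnd3 held 97.01% ± 0.0817 (SD, n = 2), and 96.9% when reads were divided by the principal transcript's length.

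The reads of Ccnd3 were assigned mainly to transcripts of its proximal start. The 3 transcripts that begin between 47593436 and 47593529 held 95.01% of the gene's expected counts in replicate 1 and 94.7% in replicate 2. The 13 transcripts of the distal start, between 47505051 and 47505241, held 2.49% and 2.55%, and 5 transcripts with internal starts held 2.49% and 2.78%. The 2 libraries differed in each of these shares by far less than the proximal share differed from the distal and internal ones. As shares of TPM, which weight the short internal transcripts more, the proximal start held 91.3% and 86.4%, the distal start 2.45% and 2.40% and the internal starts 6.29% and 11.2%.

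A single proximal transcript, Ccnd3-205 of 1977 bases, held 92.1% and 91.7% of the gene's expected counts, and 87.3% ± 3.40 of its TPM. None of the 36-base stretches of Ccnd3-205 occurs in that transcript alone, so its share is an estimate that no single read identifies. Ccnd3-201, from the distal start, held 2.06% and 2.22% of the counts. The starts of these 2 transcripts are 88.3 kb apart, and their coding exons are identical, with 876 coding bases or 292 codons, so they differ in annotated sequence outside the coding region. Among the transcripts of Ccnd3, 134 of the 36-base stretches in Ccnd3-205 occur only in proximal ones. Likewise, 205 of those in Ccnd3-201 occur only in distal ones. Within Ccnd3 a read of such a stretch can be placed at 1 start region. Whether these stretches also occur in other genes was not tested, and the deposited estimates do not record how many reads fell in them. Ccnd3-217, an internal fragment of 385 bases annotated with 298 coding bases, held 82.2 counts in replicate 1 and 519 in replicate 2, which makes it the Ccnd3 transcript whose TPM share differed most, at 1.50% and 9.05%.

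**Figure D2:**
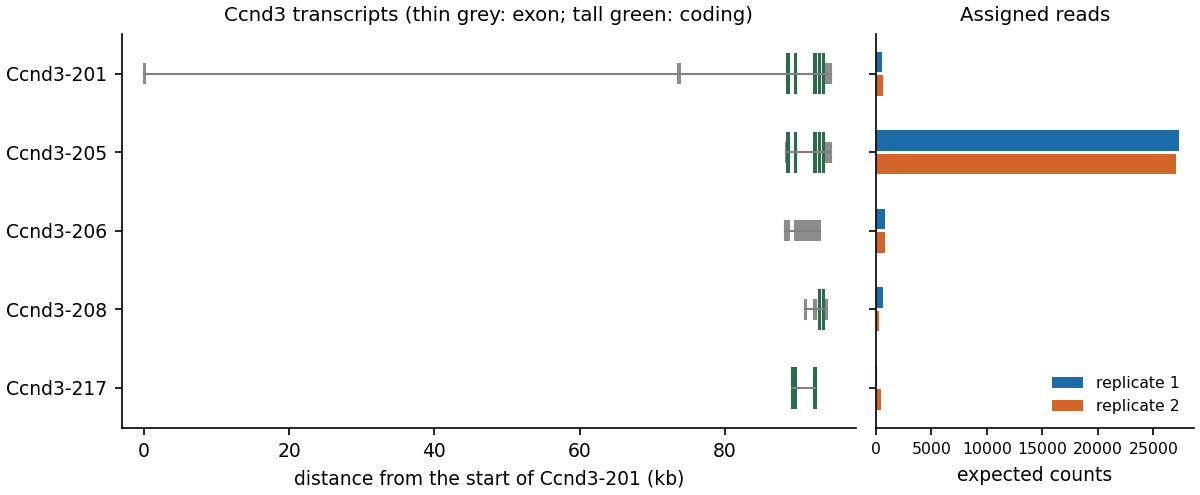
Exons of 5 Ccnd3 transcripts by distance in kb from the start of Ccnd3-201, with coding parts tall and green, beside the expected counts assigned to each in replicates 1 and 2. Ccnd3-205, which begins 88.3 kb from the distal start, holds 27262 and 27014 counts, and Ccnd3-201, with the same coding exons, holds 609 and 655.

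The promoter windows of the 2 Ccnd3 starts differed in base composition. The proximal window had 67.0% G and C and 28 CpG dinucleotides, and the distal window 59.3% and 15, where the median of 32851 RefSeq windows was 52.7% and 7. Each Ccnd3 window held 2 GC boxes, a motif present in 35.7% of all windows, and the proximal window also held 1 CCAAT box, present in 37.4%. Neither held a GATA motif, searched on both strands as AGATAA or TGATAA and also as AGATAG or TGATAG and present in 29.8% of windows. A window matched 6 of the 10 members, in 7 windows. None of the 7 held a GATA motif or TTTGAA, a form of the CHR element present in 17.9% of windows. Other forms of the CHR element were not searched, so its absence from a window was not shown. The Cdk4 window held 4 copies of CACGTG, an E-box found at least once in 7.15% of windows, and the Cdk6 window held 1. The Cdk6 window was the one of the 7 with TATAAA (13.6% of windows). The Cdk2 window held 6 GC boxes and the only E2F motif of the 7, searched as TTTCGCGC, TTTGGCGC, TTTCCCGC or TTTGCCGC and present in 2.26%. Ccnb1, a gene of mitosis, had 2 CCAAT boxes in its window. These are matches of letters, and no binding was measured.

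Of the kinase partners of the D-type cyclins, Cdk4 was far above Cdk6 in both libraries. Cdk4, on chromosome 10 from 127063534 to 127067920 on the plus strand, stood at 541 and 584 TPM from 5550 and 5325 expected counts. Cdk6, on chromosome 5 from 3341485 to 3531008 on the plus strand, stood at 5.22 and 4.96 TPM from 307 and 268 expected counts. Cdk4 thus held 99.1% ± 0.0810 of the TPM of this kinase pair, with a log2 ratio of 6.79 ± 0.13. The ratio was smaller, at 5.16 ± 0.02, over transcripts with coding sequence, and 5.12 ± 0.09 from all reads over the principal transcript's length. Over transcripts with a complete coding sequence, a measure chosen after seeing the data, it was 4.43 and 3.795 in the libraries, or 4.11 ± 0.45. By each of these measures Cdk4 was the more abundant in both libraries.

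Much of the Cdk4 level lay on short transcripts without annotated coding sequence. Cdk4-209, a retained-intron transcript of 468 bases, held 49.1% of Cdk4 TPM in replicate 1 and 54.4% in replicate 2, and 33.2% and 37.8% of its expected counts. Of its 468 bases 443 are also exonic in the full coding transcript Cdk4-201 and 226 are coding there. Only 25 of its 36-base stretches occur in no other transcript of Cdk4. Cdk4-201, with 909 coding bases, held 20.9 and 16.3 TPM, or 3.87% and 2.79% of the gene. Cdk4-202, of 714 bases with 474 coding, held 16.8% and 8.99% of TPM, Cdk4-205, of 950 bases with a coding sequence cut at an end, 12.7% and 13.5%, and Cdk4-206, another retained-intron transcript, 13.5% and 10.9%. A read of 36 bases from most of the Cdk4 mRNA fits several of these transcripts. Cdk6 was simpler, with Cdk6-202 at 97.3% and 100% of TPM.

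Of the E-type cyclins, which activate Cdk2 at the start of DNA synthesis, Ccne1 was the higher in both libraries. Ccne1, on chromosome 7 from 38097984 to 38107534 on the minus strand, stood at 178 and 187 TPM from 4122 and 4003 expected counts. Ccne2, on chromosome 4 from 11191351 to 11204779 on the plus strand, stood at 70.4 and 51.4 TPM from 729 and 473 expected counts. Ccne1 therefore held 71.6% and 78.4% of their summed TPM, with a log2 ratio of 1.60 ± 0.37. This was the ratio with the largest spread of the 4 computed, since Ccne2 was lower in replicate 2 and Ccne1 was not.

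The excess of Ccne1 was larger among coding transcripts. Transcripts without coding sequence held 90.7% and 91.4% of Ccne2 TPM, led by Ccne2-205 of 432 bases with 76.7% and 65.8%, and by Ccne2-203 with 6.92% and 15.5%. All 432 bases of Ccne2-205 are exonic in the principal coding transcript Ccne2-202, and 34 of its 36-base stretches occur in no other transcript of Ccne2. Coding transcripts of Ccne2 reached only 6.58 and 4.43 TPM, against 156 and 141 TPM for those of Ccne1, a log2 ratio of 4.78 ± 0.30. Ccne1-201, the full coding form, held 64.0% and 66.9% of Ccne1 TPM and 86.9% and 89.5% of its counts. The next 2 Ccne1 transcripts exchanged places between libraries, Ccne1-204 with 23.1% and 8.55% of TPM and Ccne1-205, which has no coding sequence, with 11.9% and 24.2%. Only 78 of the 36-base stretches of Ccne1-204 and 9 of those of Ccne1-205 occur in no other transcript of Ccne1. How reads that fit several Ccne1 transcripts were divided was not tested.

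Cdk2, the kinase shared by cyclins E and A, lies on chromosome 10 from 128697939 to 128705031 on the minus strand and stood at 40.3 and 41.3 TPM from 1503 and 1413 expected counts. All of its reads were assigned to 2 coding transcripts. Their coding sequences differ by the exon printed above, and they also differ in a few bases outside the coding sequence. Cdk2-202, which includes the 48 codons, held 48.4% of Cdk2 TPM in replicate 1 and 63.1% in replicate 2, and Cdk2-201, which skips them, 51.6% and 36.9%. In expected counts the 2 forms were nearly equal in replicate 1, at 751 for Cdk2-202 and 752 for Cdk2-201. In replicate 2 Cdk2-202 had more, at 911 against 502. Cdk2-202 has 206 stretches of 36 bases found in no other transcript and Cdk2-201 has 40, so the exon itself can be read directly while the skipping form is identified mainly at its junction. The total of Cdk2 differed little between libraries, with a log2 ratio of replicate 2 to replicate 1 of 0.05 (95% exact interval -0.06 to 0.15).

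The cyclins of S phase and mitosis changed order with the way their level was computed. Ccna2, on chromosome 3 from 36564865 to 36572150 on the minus strand, stood at 180 and 149 TPM from 7197 and 5536 expected counts. Ccnb1, on chromosome 13 from 100778650 to 100786570 on the minus strand, stood at 271 and 250 TPM from 3641 and 2786 expected counts. Ccnb1 was thus higher in TPM while Ccna2 had more reads, and the log2 ratio of Ccna2 to Ccnb1 was -0.67 ± 0.11 in TPM and 0.99 ± 0.01 in expected counts. It was 1.17 ± 0.05 over transcripts with coding sequence, and 0.73 ± 0.01 from all reads over the principal transcript's length. The sign was the same in both libraries under each measure, so the direction rests on the measure and not on a library.

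The lengths assigned to Ccnb1 were short. Ccnb1-205, a retained-intron transcript of 461 bases, held 67.9% and 71.8% of Ccnb1 TPM but 34.6% and 40.1% of its expected counts. Of its bases 347 are exonic in the full coding transcript Ccnb1-201, and 147 of its 36-base stretches occur in no other transcript of Ccnb1. Ccnb1-207, with 1179 coding bases, held 13.1% and 12.9% of TPM. Ccnb1-201, which has the exon printed above, had 880 and 462 expected counts, and Ccnb1-202, which skips it, 721 and 555. Of these 2 transcripts the one with more reads differed between the libraries. Ccnb1-207, with 655 and 541 counts, has 1179 bases that are coding in Ccnb1-201, against 1107 for Ccnb1-202. It must therefore hold at least part of the exon. Ccnb1-201 and Ccnb1-207 together had more reads than Ccnb1-202 in both libraries. Only 166 of the 36-base stretches of Ccnb1-201, 33 of Ccnb1-202 and 32 of Ccnb1-207 occur in no other transcript of Ccnb1. How reads that fit several of these transcripts were divided was not tested. For Ccna2 the full coding transcript Ccna2-201 held 66.8% and 70.3% of TPM, and Ccna2-203, annotated as a target of nonsense-mediated decay, 30.1% and 27.9%. Pseudogenes share sequence with Ccnb1, and 73.6% of its 36-base stretches were found in no other gene, yet Ccnb1-ps, with the largest overlap, held only 19.1 and 40.2 expected counts.

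Members differed in the class of transcript that held their TPM. Of the 60 transcript rows 22 have a complete coding sequence, 13 one that is cut at an end, 3 are annotated for nonsense-mediated decay and 22 have no coding sequence. Transcripts without coding sequence held over 50% of the TPM of Cdk4, at 65.8% and 69.2%, of Ccnb1, at 70.8% and 74.7%, and of Ccne2. They held 12.4% and 24.5% of Ccne1, 3.14% and 1.75% of Ccna2 and 1.55% and 1.50% of Ccnd3. Ccnd1, Ccnd2, Cdk2 and Cdk6 had none of their TPM there. Counted in reads the shares of these 3 genes were lower, at 50.4% and 53.4% for Cdk4, 38.04% and 44.1% for Ccnb1 and 57.0% and 60.2% for Ccne2, and that of Ccnd3 was higher, at 2.94% and 2.9996%. Over coding transcripts alone the mean levels were 1032 TPM for Ccnd3, 182 for Cdk4, 160 for Ccna2, 148 for Ccne1, 71.2 for Ccnb1, 40.8 for Cdk2, 31.8 for Ccnd2, 5.51 for Ccne2, 5.09 for Cdk6 and 0.455 for Ccnd1. These include transcripts with a cut coding sequence or annotated for decay, and with complete coding sequences alone Ccnd3 was at 970 ± 40.6 TPM, Ccne1 at 119 ± 7.81, Ccna2 at 112 ± 11.03 and Cdk4 at 90.4 ± 30.5.

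**Figure D3:**
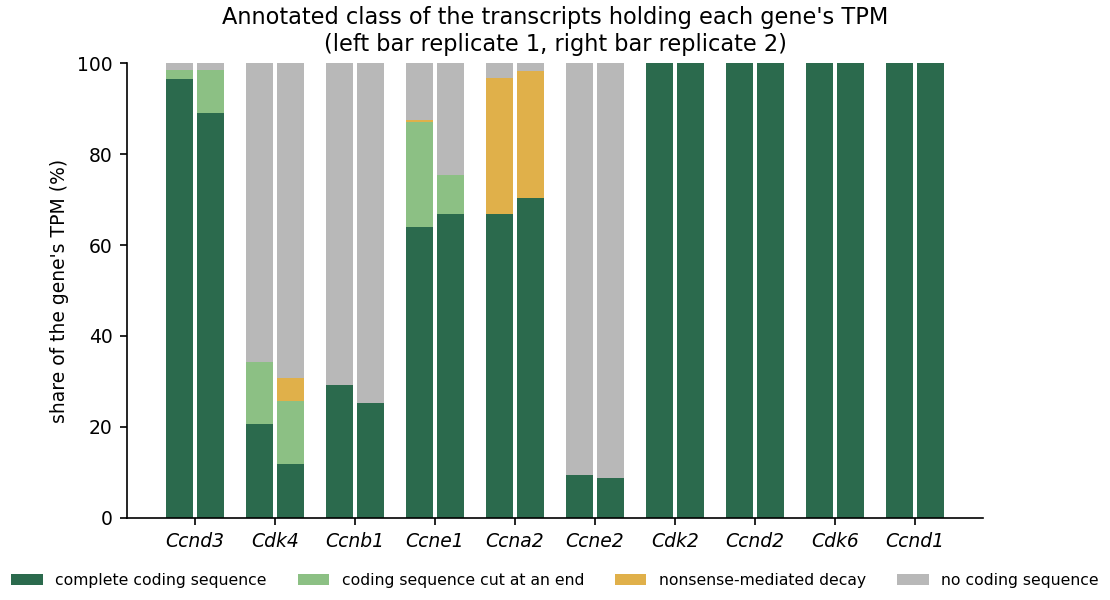
Share of each gene's TPM, in percent, on transcripts of 4 annotated classes, with the left bar for replicate 1 and the right bar for replicate 2. Grey, for transcripts without coding sequence, fills most of the bars of Cdk4, Ccnb1 and Ccne2, while Cdk2, Ccnd2, Cdk6 and Ccnd1 lie wholly on complete coding transcripts.

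**Figure D4:**
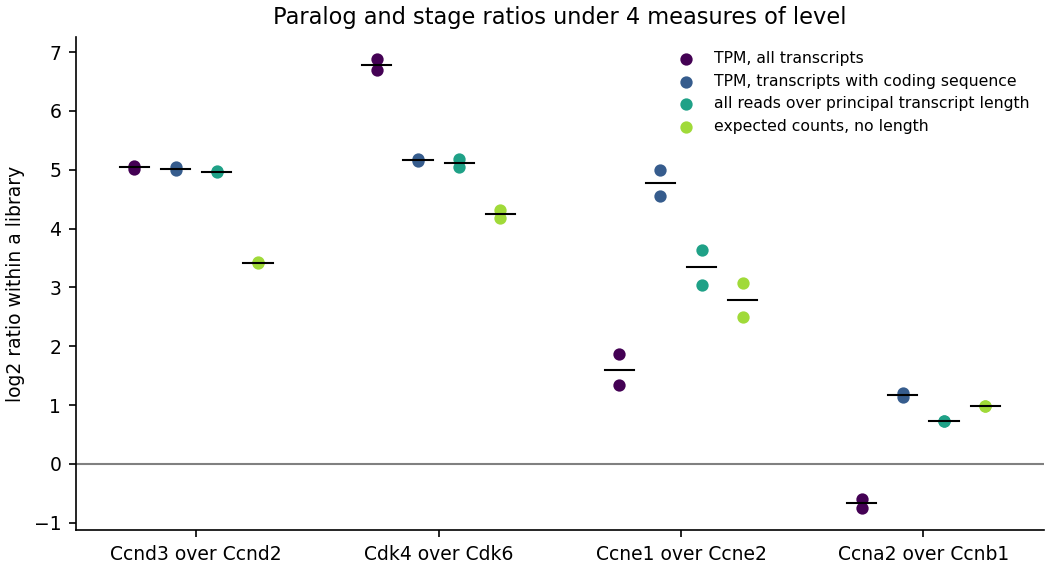
Log2 ratios of 4 gene pairs within each library, as points for the replicates and a bar for their mean, under 4 measures of level. The first 3 pairs stay above 0 under every measure plotted, and Ccna2 over Ccnb1 lies at -0.67 in TPM and above 0 under the other 3.

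Between the replicates, 1 of the 9 members with at least 50 expected counts on average differed by over 0.32 on the log2 scale of CPM in either direction, against 16.7% of 9315 genes with as many counts. That member was Ccne2, 1.40-fold lower in replicate 2, with a log2 CPM ratio of -0.49 (95% exact interval -0.66 to -0.32, counting error only). Ccna2, at -0.24 (-0.29 to -0.19), and Ccnb1, at -0.25 (-0.32 to -0.18), were also lower in replicate 2. The intervals of 4 members lay above 0, namely Ccnd2 at 0.15 (0.07 to 0.22), Ccnd3 at 0.13 (0.11 to 0.15), Ccne1 at 0.09 (0.03 to 0.16) and Cdk4 at 0.08 (0.02 to 0.13). For Ccnd1, Cdk2 and Cdk6 the interval included 0. The 3 members that were lower in replicate 2 act from the entry into S phase to mitosis, while Ccne1, which acts at the same step as Ccne2, lay above 0 with Ccnd2, Ccnd3 and Cdk4. The mitotic kinase gene Cdk1, the partner of cyclin B, was also lower in replicate 2 at -0.20 (-0.29 to -0.11), as was the second B-type cyclin gene Ccnb2 at -0.13 (-0.20 to -0.06). Ccnf, a cyclin that directs protein destruction, and Cdc20, an activator of cyclin B destruction, went the other way at 0.21 and 0.13. Of the 9315 genes 4864 were lower in replicate 2, their median was -0.01, and the range from their percentile 5 to their percentile 95 was -0.50 to 0.27, which held all 9 tested members.

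**Figure D5:**
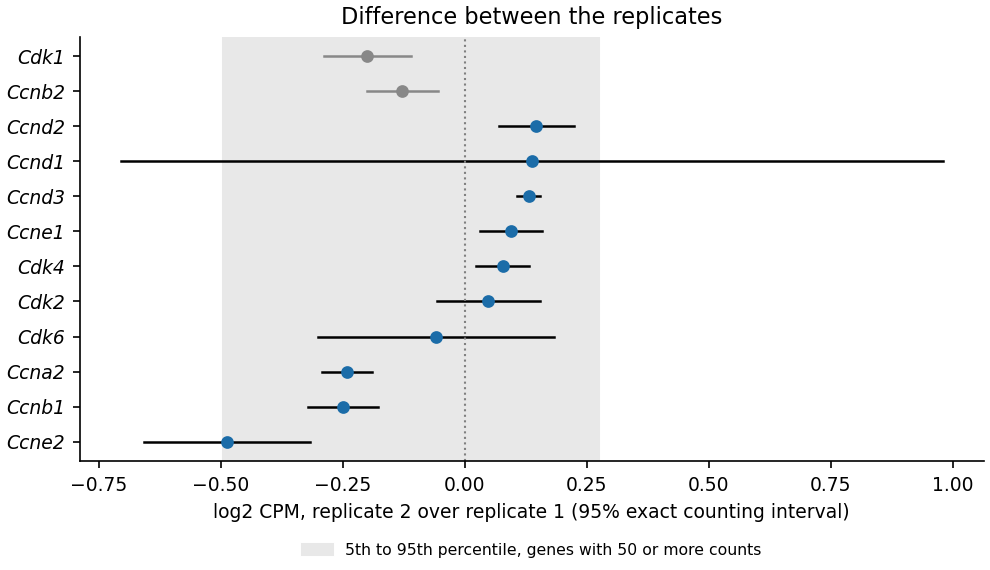
Log2 CPM of replicate 2 over replicate 1 for the 10 members in blue and for Cdk1 and Ccnb2 in grey, with 95% exact counting intervals, beside a shaded band for the 5th to 95th percentile of 9315 genes. Ccne2, Ccnb1 and Ccna2 lie lowest, Ccnd2 and Ccnd3 are on the right, every point is inside the band, and the interval of Ccnd1 is the widest.

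Other genes of the cyclin-CDK system gave the setting for these levels. Of 18 other cyclins 14 were detected, with a median over all 18 of 32.5 TPM, where the median of all 21474 protein-coding genes was 0.08 TPM and that of the detected ones 20.8 TPM. The highest were Ccnf at 144 ± 14.3 TPM, Ccnb2 at 134 ± 8.55 TPM and Ccnk, a partner of transcriptional CDKs, at 89.6 ± 1.83 TPM. Ccna1, Ccnb3 and Ccno had 0 counts in both libraries and Cntd1 stood at 0.23 and 0.58 TPM. Cyclins A and B were thus measured almost wholly as Ccna2, Ccnb1 and Ccnb2, and the germ cell forms Ccna1 and Ccnb3 were without a read.

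Of 22 other CDK genes 14 were detected, with a median of 7.75 TPM. Cdk1 led at 129 and 106 TPM (118 ± 16.3), followed by Cdk16 at 105 ± 10.4 TPM and Cdk8, a kinase of the Mediator complex, at 75.6 ± 2.47 TPM. Cdk4 and Cdk1 were therefore the CDK genes that reached 100 TPM in each library, Cdk4 by its total TPM and, at 182 TPM, by its transcripts with any coding sequence, but not by those with a complete one. Genes including Cdk14, Cdk15, Cdk18, Cdkl1, Cdkl2, Cdkl4 and the pseudogene Cdk3-ps were under 1 TPM in at least 1 library, and Cdk15 and Cdk18 had 0 counts.

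Among 20 direct controls of cyclin-CDK activity 19 were detected, with a median of 28.2 TPM. The highest were Ube2c, which carries ubiquitin to mitotic cyclins, at 602 ± 5.06 TPM, Cks1b, a small CDK-binding subunit, at 311 ± 18.9 TPM and Cdc20 at 173 ± 10.4 TPM. Fbxo4, a ubiquitin ligase subunit, was under 1 TPM at 0.98 and 0.89. Of the 19 genes with enough counts 14 were lower in replicate 2, as were 4864 of 9315 genes in all. The difference of 0.32 on the log2 scale between replicates was passed by 5 of these 19, by 3 of 14 other cyclins, by 0 of 12 other CDK genes and by 0 of 4 CDK inhibitor genes, beside 16.7% of all genes. Of 7 CDK inhibitor genes 4 were detected, led by Cdkn1a at 117 ± 5.98 TPM, Cdkn1b at 74.1 ± 4.99 TPM and Cdkn2c, an inhibitor of Cdk4 and Cdk6, at 65.5 ± 2.44 TPM. Cdkn1c, Cdkn2a and Cdkn2b had 0 counts in both libraries. Cdk7 and Ccnh, of the CDK-activating kinase, belong to 2 of these lists each.

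Sequence shared with other genes bears on several of these levels. The share of 36-base stretches found in no other gene was 100% for Ccne1 and Cdk2, 97.4% for Cdk6, 94.6% for Ccnd2 and 92.8% for Ccnd3. For Cdk6 that share is over an M21 transcript of 11525 bases, where the deposited one had 3735, so it may not hold for the deposited one. It was 86.4% for Ccna2, which shares stretches with Exosc9, 84.7% for Ccne2, which shares them with Ints8, and 81.6% for Cdk4, which shares them with Tspan31. These 3 partners held 340 and 217, 563 and 513, and 326 and 258 expected counts in the same order. Ccna2 and Cdk4 had many times more reads than their partners, while Ccne2 and Ints8 had similar numbers, and how the shared reads were divided was not tested.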

How the data were processed

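Poly(A) RNA-seq values of 2 libraries of 1 group were used, so no test between groups was made. Per the deposited file manifests, reads were aligned and quantified on mm10 with GENCODE M4; which aligner and quantifier were used, and whether strand was, is not given in the sources used here. The deposited tables hold, per the file headers, expected counts, TPM, posterior mean TPM and the percent of a gene's TPM on each transcript. Symbols, transcript classes and exons came from GENCODE M21 on the same assembly, matched by identifier for 42462 of 69691 rows, and rows without a match held 0.194% and 0.174% of expected counts.

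From these values the within-library log2 ratios, shares of TPM and of counts, and CPM ratios between replicates were computed in Python 3.11.15 with exact 95% Clopper-Pearson intervals (scipy 1.17.1), which cover counting error only. Alternatives used edgeR 4.0.16 in R 4.3.3 for TMM scaling of rounded expected counts. Detection meant 1 TPM in both libraries. The replicate comparison took genes with 50 expected counts on average and a difference of 0.32 in log2 CPM, and the calculation of the intervals was tested on simulated data. For the shares found in no other gene, stretches of 36 bases were compared over all M21 transcripts. Counts of stretches confined to a transcript or a start region compared only the members' own M21 transcripts. Stretches shared with other genes were not removed from those counts. The M21 lengths differ from the deposited ones for a few members, Cdk6-202 most, at 11525 against 3735 bases. Promoter windows came from RefSeq.

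The members and lists were chosen with earlier results of these data known. The rule for names took all members, Cdk1, Ccnb2, the 3 highest genes of each list and those under 1 TPM, and each member's leading transcript with any at 10% or more of its TPM. Other transcripts, and genes that share sequence with a member, were named after their values were seen, as were Klf1 and the comparison of Ccnf and Cdc20 between replicates. Values of some genes that this rule would name are not reported here.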

Additional observations from a re-analysis of the deposited data

How the results depend on the processing

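The 9 of 10 members detected and the 1 member over 0.32 on the log2 scale between replicates were the least dependent on the processing. Detected members numbered 9 at 0.5 TPM, 8 at 5 TPM and 9 with posterior mean TPM, with coding transcripts alone or with either library left out (lowest 9, highest 9), and Ccne2 was the 1 member past that difference with TMM scaling, with TPM and at 10 counts. The log2 ratio of Ccna2 over Ccnb1, -0.67 in TPM, changed sign to 0.99 in expected counts, to 1.17 over transcripts with coding sequence, to 0.66 over those with a complete coding sequence and to 0.73 from reads over the principal transcript's length. Ccnd3 over Ccnd2, 5.04 in TPM, was 3.42 in expected counts, 4.996 on log2(TPM + 1), 4.93 over complete coding sequences and 4.97 over the principal length. Cdk4 over Cdk6, 6.79 in TPM, was 4.24 in expected counts, 5.16 over coding transcripts, 6.53 on log2(TPM + 1), 4.11 over complete coding sequences and 5.12 over the principal length. Ccne1 over Ccne2, 1.60 in TPM, was 2.79 in expected counts, 4.78 over coding transcripts, 4.46 over complete coding sequences and 3.34 over the principal length. The measures with complete coding sequences and with the principal length were chosen after seeing the data. By construction, expected counts are not divided by length, the coding and principal-length measures drop or re-weight short transcripts, and log2(TPM + 1) adds the pseudocount of 1 to both genes; any further cause was not tested. With either library left out the ratios ranged from 5.01 to 5.07, from 6.69 to 6.88, from 1.33 to 1.86 and from -0.75 to -0.59 in the order Ccnd3 over Ccnd2, Cdk4 over Cdk6, Ccne1 over Ccne2 and Ccna2 over Ccnb1. Leaving out globin and mitochondrial rows multiplied every TPM by 1.19 and 1.21. No paired analysis was possible because both libraries belong to 1 group. At about 26 counts Ccnd1 could not be compared between libraries to better than its interval of -0.70 to 0.98.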
